A study of Mus musculus with 12 samples.

Results

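Pancreatic tumours of gemcitabine-treated KPC mice with 2 wild-type copies of Cdh11 were set against tumours of the same genotype from untreated mice. Libraries were taken by their titles, which gave 3 treated and 3 untreated wild-type libraries, 6 of the 12 in the series, and all genes were considered: 24065 of the 52636 in the files had enough reads to be tested. KPC mice are a genetically engineered model in which tumour-driving mutations, among them a mutant Trp53, are switched on in the pancreas by Cre recombinase, and they develop ductal adenocarcinoma of their own. Both groups were labelled KPC/CDH11+/+ on a mixed background of C57BL/6 and 129, so the controls carried the tumour alleles too; the treated mice had received gemcitabine and the others were labelled untreated, with no vehicle mentioned. The promoter driving Cre, the alleles, the animals' age and the dose and schedule of the drug are not given in the labels or the series' design text. Each group held 3 mice, one library each, made from snap-frozen tumour tissue by depletion of ribosomal RNA from total RNA with strand kept. The other 6 libraries, from gemcitabine-treated and untreated mice with 1 functional Cdh11 copy (KPC/CDH11+/-), entered the fit and are used only where a difference between genotypes is tested or set beside a value.

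Gemcitabine is a deoxycytidine analogue. Cells import it through nucleoside transporters and phosphorylate it in a first step by deoxycytidine kinase; its triphosphate is built into DNA and stalls the polymerase, and its diphosphate inhibits ribonucleotide reductase, which makes deoxynucleotides. Deaminases inactivate it. Pancreatic ductal adenocarcinoma is known for a dense stroma of fibroblasts and collagen around a minority of tumour cells, so RNA from whole tissue mixes epithelium, fibroblasts, vessels, immune cells and remnants of normal pancreas. In such bulk samples, fewer cells of a type and less RNA per cell cannot be told apart.

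The 6 wild-type libraries held between 40628424 and 56559413 counts. All carried duct and tumour epithelium markers (Krt19 at 315 to 1059 CPM, counts per 1e+06 counts of the library after TMM scaling, and Epcam at 151 to 311) together with fibroblast, endothelial and leukocyte markers (Col1a1 at 1812 to 6501, Pecam1 at 44.8 to 104 and Ptprc at 33.1 to 185 CPM), as the label of a ductal carcinoma implies. Untreated mouse 2 was the only wild-type library with Y-linked RNA, 203 CPM in all, and had Xist, the RNA that coats the inactive X chromosome, at 0.807 CPM; the other 5 had Xist at 1322 to 3567 CPM and at most 0.828 CPM from the Y chromosome. Sex is therefore unevenly spread over the groups. The 7SL and 7SK RNAs took 8.28% to 8.61% of counts in treated libraries and 5.53% to 7.87% in untreated ones, and transcripts of the mitochondrial genome took 2.44% to 2.9% in treated libraries and 1.43% to 2.33% in untreated ones. Neither pair of ranges overlapped.

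No gene passed an adjusted p of 0.05 in edgeR's quasi-likelihood test with Benjamini-Hochberg adjustment over the 24065 genes (0% called), and the lowest adjusted p was 0.559. At an unadjusted p under 0.05 there were 2070 genes, 8.6% of those tested, 975 higher in treated tumours (4.05%) and 1095 lower (4.55%). Without gemcitabine mouse 2 that count was 1330. The limma voom test called 0 genes, and DESeq2 called 120, or 0.521% of the 23017 genes it gave an adjusted p, of which 51 were higher (0.222%) and 69 lower (0.3%). The 69 include Y-linked genes such as Uty, at 0.0655, 0.0929 and 0.024 CPM in treated tumours, against 0.154, 46.9 and 0.118 CPM in untreated tumours, where only mouse 2 was high. The spread between mice of one group was wide, with a biological coefficient of variation of 46.4%. In 1571 genes (6.53%) the 3 treated libraries were all above the 3 untreated ones and in 1725 (7.17%) all below; these shares are the background for the counts given below. A log2 fold change is that of treated over untreated tumours, given with its standard error (SE), and its sign was positive in 51% of genes and negative in 48.9%. What follows describes differences in level, none of which passed edgeR's test after adjustment.

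Among annotated genes whose groups did not overlap, the smallest p-value in the upward direction belonged to Qtrt1 (chr9:21411837-21420274, GRCm38), the catalytic subunit of the enzyme that puts queuine into transfer RNA. Qtrt1 had 22.3, 20.3 and 32.6 CPM in treated tumours, against 11.2, 9.22 and 8.91 CPM in untreated tumours, a log2 fold change of 1.36 ± 0.23 (95% interval 0.85 to 1.86). The lowest treated tumour, at 20.3 CPM, lay well above the highest untreated one, at 11.2 CPM, although some gap was required by the choice of genes. Ckmt1, a mitochondrial creatine kinase, had 29.3, 13 and 53.7 CPM in treated tumours, against 5.8, 5.28 and 4.16 CPM in untreated tumours (2.66 ± 0.50). Wfdc2, a secreted protein also known as HE4 and made by glandular epithelia, had 199, 426 and 458 CPM in treated tumours, against 25.5, 84.6 and 106 CPM in untreated tumours (2.32 ± 0.53). The groups of Ckmt1 and Wfdc2 lay apart, as that choice required, and both genes varied widely between treated mice.

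Pml, the scaffold of nuclear bodies, had 68.3, 53.3 and 71.2 CPM in treated tumours, against 36, 36.8 and 27.9 CPM in untreated tumours (0.94 ± 0.22). Sigirr, a receptor of the interleukin-1 family that dampens signalling, had 17.3, 51.7 and 48.3 CPM in treated tumours, against 9.24, 12.9 and 3.15 CPM in untreated tumours (2.21 ± 0.52). Pml was tight within groups, whereas Sigirr varied several-fold within each group. The other upward genes were the snoRNA Snord22 (0.97 ± 0.18, described below), the chaperone of the DnaJ family Dnajc22 (1.59 ± 0.33), the glycosyltransferase B4galnt4 (3.24 ± 0.72), the translation initiation factor subunit Eif3g (0.76 ± 0.18) and the membrane protein Tmem266 (3.49 ± 0.67), whose untreated tumours were at 0.158 to 0.184 CPM.

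In the downward direction the smallest p-value belonged to Slitrk5 (chr14:111675097-111683141), a synaptic adhesion protein, with 2, 2 and 0 counts in treated tumours and 34, 51 and 164 counts in untreated tumours (-5.70 ± 0.87). Cyp7b1, which hydroxylates oxysterols, had 4.63, 4.62 and 3.79 CPM in treated tumours, against 18.1, 36.1 and 12.8 CPM in untreated tumours (-2.36 ± 0.41). Bach1, a repressor of haem oxygenase and other antioxidant genes that haem releases from DNA, had 73, 73.2 and 87.4 CPM in treated tumours, against 144, 140 and 143 CPM in untreated tumours (-0.87 ± 0.16). The 3 untreated values of Bach1 lay within a few CPM of each other, and all treated values were far below them.

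Thbd, the thrombin receptor thrombomodulin of vessel linings, had 26.7, 17.6 and 18.1 CPM in treated tumours, against 45.6, 51.2 and 46.1 CPM in untreated tumours (-1.19 ± 0.26). Itga9, an integrin chain, had 36.3, 39.7 and 22.9 CPM in treated tumours, against 66.3, 72.3 and 63.3 CPM in untreated tumours (-1.03 ± 0.22). Both were lower in every treated tumour than in any untreated one, as the choice of genes without overlap required. The others were Kank4 (-3.75 ± 0.71), the axon guidance protein Draxin (-2.24 ± 0.46), the ubiquitin ligase adaptor Klhl13 (-1.53 ± 0.32), the clathrin adaptor subunit Ap1s2 (-1.19 ± 0.26) and the pseudogene Rpl7a-ps11. Rpl7a-ps11 had 0 counts in all 3 treated tumours and 227, 332 and 294 counts in untreated ones, at least 89.1-fold lower against a floor of 3 counts per library. Its sequence is nearly that of 36 other copies, among which reads may be split: summed with them, treated tumours had 413, 624 and 439 CPM and untreated tumours 344, 385 and 492 CPM, which overlap. All 20 genes had an edgeR adjusted p of 0.559, and DESeq2 called all 20.

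**Figure D1:**
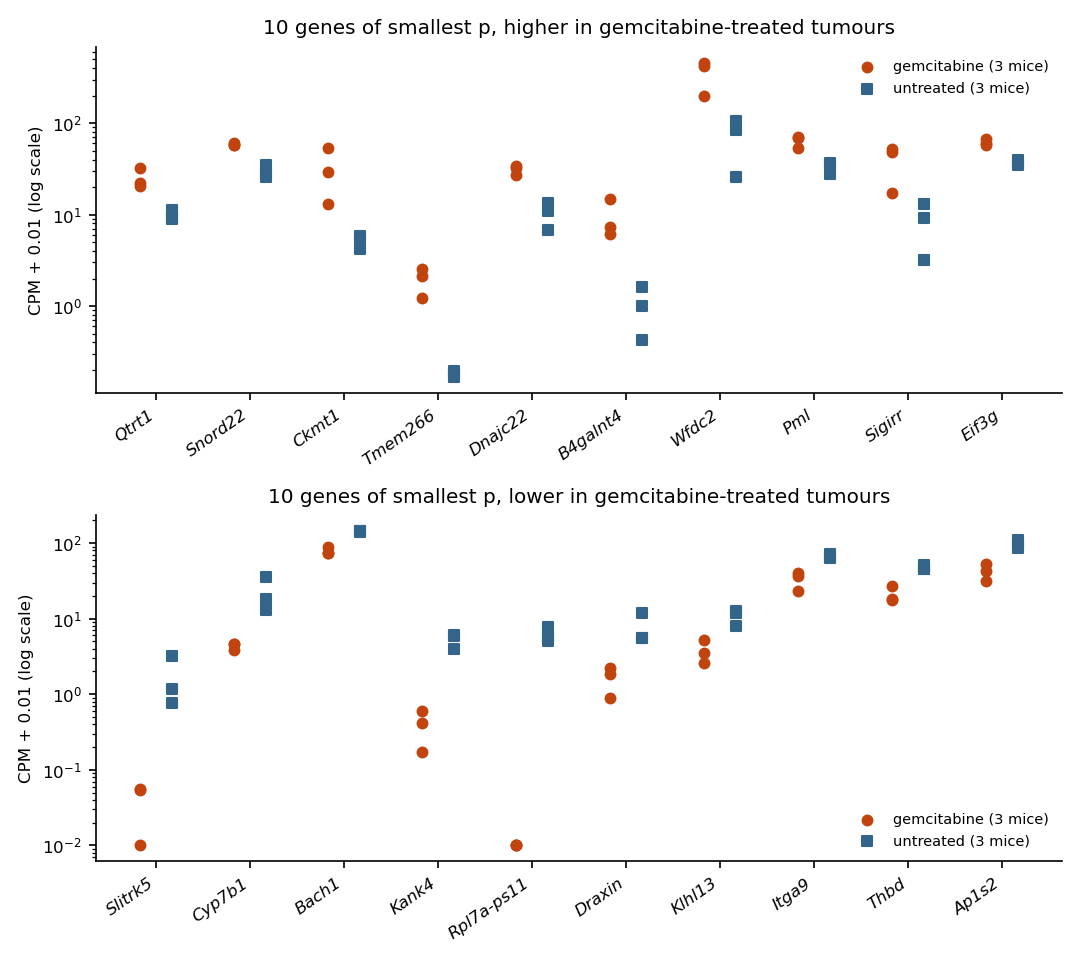
CPM (plus 0.01, on a log scale) of the 10 annotated genes with the smallest p-value in each direction, among those whose groups do not overlap, in each gemcitabine-treated (left) and untreated (right) wild-type tumour. For Qtrt1 the treated tumours sit at 20.3 to 32.6 CPM and the untreated ones at 8.91 to 11.2.

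Small nucleolar RNAs (snoRNAs) guide the chemical modification of ribosomal and spliceosomal RNA. Box C/D snoRNAs guide methylation and end near a box D with the letters CTGA; box H/ACA snoRNAs guide pseudouridylation and carry the letters ACA 3 bases before their end. Most vertebrate snoRNAs lie in introns of host genes and are trimmed out of the spliced intron. The snoRNAs with the smallest p-values are shown to make plain which molecules are meant, 5' to 3' from GENCODE M21 transcripts, with box D (CTGA) or the ACA box in capitals.
Snord22: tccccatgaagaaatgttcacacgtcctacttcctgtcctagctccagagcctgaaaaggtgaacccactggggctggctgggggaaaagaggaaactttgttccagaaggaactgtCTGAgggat
Snora41: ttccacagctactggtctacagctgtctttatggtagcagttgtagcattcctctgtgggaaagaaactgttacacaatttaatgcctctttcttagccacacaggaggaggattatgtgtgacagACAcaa
Snora68: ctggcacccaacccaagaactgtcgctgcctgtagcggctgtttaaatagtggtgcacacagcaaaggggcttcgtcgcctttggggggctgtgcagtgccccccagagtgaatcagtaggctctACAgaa
Snord118: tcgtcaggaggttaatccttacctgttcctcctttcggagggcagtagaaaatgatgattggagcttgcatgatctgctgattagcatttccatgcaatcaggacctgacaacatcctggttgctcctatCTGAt
Snord22 lies at chr19:8725866-8725991 on the plus strand (GRCm38) within Snhg1, Snora41 at chr1:63179004-63179135 on the plus strand, Snora68 at chr8:70895759-70895889 on the minus strand and Snord118, also called U8 and needed for processing of the large ribosomal subunit RNAs, at chr11:69073427-69073561 on the plus strand. Their 126, 132, 131 and 135 bases were searched on the transcribed strand only. CTGA was present within the last 15 bases of 92 of 98 box C/D transcripts in GENCODE M21 (93.9%). ACA stood 3 bases before the end of 35 of 42 box H/ACA transcripts there (83.3%). A match describes the letters only.

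All 52 tested members of the named snoRNA family had a log2 fold change above 0, from one that rounds to 0.00 up to 2.21, with a median of 0.96. In 22 of them (42.3%, against 6.53% of all genes) the treated tumours were all above the untreated ones, and in 0 all below. No member passed edgeR's test, as for every gene. These are the genes named Snora or Snord with a number; over all 161 tested genes annotated as snoRNA, predicted ones included, 145 were above 0 (90.1%), the median was 0.81, and 54 were apart upward (33.5%) and 0 downward. Snord22 had 57.1, 57.1 and 61.2 CPM in treated tumours, against 28.6, 25.9 and 35.2 CPM in untreated tumours (0.97 ± 0.18). Snora68 had 3.12, 5.57 and 6.42 CPM in treated tumours, against 2.2, 1.82 and 1.87 CPM in untreated tumours (1.36 ± 0.34). Snord118 had 5.66, 9.34 and 7.16 CPM in treated tumours, against 4.23, 2.33 and 3.8 CPM in untreated tumours (1.10 ± 0.33). The gap between the groups was wide for Snord22 and narrow for Snora68 and Snord118. Snora41 was rarer, with 0.459, 0.859 and 0.791 CPM in treated tumours, against 0.0882, 0.184 and 0.177 CPM in untreated tumours (2.21 ± 0.53).

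Both classes of snoRNA had similar medians: the median was 0.98 in 17 box C/D members and 0.92 in 35 box H/ACA members. Summed over the family, snoRNAs took 1060, 1147 and 1580 CPM in treated tumours, against 892, 845 and 912 CPM in untreated tumours. Treated mouse 3 was highest, and the lowest treated tumour was above every untreated one. Leaving out 1 library at a time kept the median between 0.78 and 1.20. The 7SL and 7SK shares given above moved the same way; Rn7sk, the 7SK RNA that restrains transcription elongation, had a log2 fold change of 0.54 ± 0.21 with groups apart. Small nuclear RNA genes moved the same way, with 55 of 71 above 0 (77.5%) and a median of 0.57. In 19 of them the treated tumours were all higher (26.8%, against 6.53% of all genes) and in 1 all lower (1.41%, against 7.17%). MicroRNA genes, 47 tested, had a median of 0.23, with groups apart in 2 upward and 2 downward. The part of a general shift of short noncoding RNA between libraries in these levels was not tested.

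A host gene lay around 45 of the 52 snoRNAs on the same strand and was itself tested, 38 different hosts in all. The hosts had a median log2 fold change of 0.42, with 34 of 38 above 0, and their snoRNAs a median of 0.96. In 35 of 45 the snoRNA's log2 fold change was above its host's, with a median difference of 0.51. Snhg1, the noncoding host of Snord22, was at 0.91 ± 0.34, close to its snoRNA. Reads of the host that cover the snoRNA may be counted for either gene, so these pairs are not independent.

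**Figure D2:**
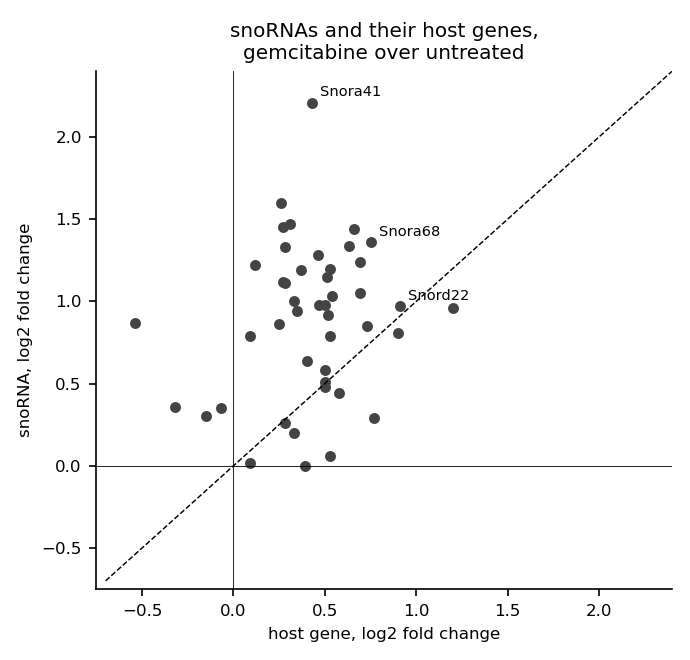
Log2 fold change, gemcitabine-treated over untreated wild-type tumours, of 45 snoRNAs (vertical axis) against that of the host gene around each (horizontal axis), with the line of equal values. Most points, 35 of 45, lie above the line.

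Genes of ribosomal proteins lay above 0 by less. Of 88 tested, 86 had a log2 fold change above 0 and 2 below, and the median was 0.44. The groups lay apart in 14 upward (15.9%, against 6.53% of all genes) and 0 downward. Rplp1, of the ribosomal stalk, had 375, 526 and 370 CPM in treated tumours, against 200, 243 and 299 CPM in untreated tumours (0.78 ± 0.27), and Rps25, of the small subunit, was at 0.66 ± 0.23. The family's highest value, 8.30 for Rps3a3, belongs to a pseudogene copy at 0.918, 379 and 104 CPM in treated tumours, against 0.595, 0.277 and 0.65 CPM in untreated tumours, whose reads may be split with near-identical copies. Summed over the family, treated tumours had 19017, 33023 and 20944 CPM and untreated tumours 15891, 16682 and 21400 CPM, so that the sums overlapped and treated mouse 2 stood highest. Without that mouse the median was 0.14.

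All 13 tested genes of the mitochondrial genome, which encode subunits of the respiratory chain, were above 0, with a median of 0.50. Groups were apart in 2 (15.4%), both upward. The complex I subunit mt-Nd6 had 74.2, 58.7 and 51.1 CPM in treated tumours, against 46.4, 33.5 and 37.8 CPM in untreated tumours (0.64 ± 0.23). The median stayed between 0.37 and 0.66 when libraries were left out one at a time. Summed, these genes had 7537, 10264 and 6476 CPM in treated tumours and 7118, 5576 and 6668 CPM in untreated tumours. The sums overlapped, with treated mouse 3 inside the untreated range. The shares of counts given earlier, which did not overlap, covered all transcripts of the mitochondrial genome and not these genes alone.

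Most stromal genes lay on the other side. Pooled over 9 lists of matrix, fibroblast, TGF-beta and cadherin genes, 117 of 156 tested genes had a negative log2 fold change and 39 a positive one, the median was -0.43, and the treated tumours were all below the untreated ones in 28 (17.9%, against 7.17% of all genes) and all above in 3 (1.92%, against 6.53%). The pooled median was -0.26 without untreated mouse 3. Not every list in the pool shared this direction. The cadherin and catenin list had 8 genes above 0 and 7 below (median 0.00), with 1 apart upward and 2 downward. The basement membrane list had 7 above 0 and 11 below (median -0.24), with 1 apart downward (5.56%). Among fibrillar collagens and their partners, 23 of 25 were below 0, with a median of -0.61 that was -0.97 without treated mouse 1. Lum, lumican, a small leucine-rich proteoglycan that spaces collagen fibrils, had 117, 53.8 and 60.6 CPM in treated tumours, against 209, 175 and 178 CPM in untreated tumours (-1.28 ± 0.32). The proteoglycan biglycan, Bgn, was at -1.06 ± 0.37 and the matricellular thrombospondin Thbs1 at -1.01 ± 0.39, both with groups apart. The sum over the list overlapped between groups, at 36299, 18768 and 17845 CPM in treated tumours and 32515, 37344 and 47075 CPM in untreated tumours, with treated mouse 1 inside the untreated range.

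Of 24 genes of matrix processing, enzymes together with TIMP inhibitors and a collagen chaperone, 23 were below 0, with a median of -0.60. Groups were apart in 8 (33.3%), all downward. Fap, the fibroblast activation protease, had 7.3, 4.53 and 9.03 CPM in treated tumours, against 17.4, 33.3 and 20.1 CPM in untreated tumours (-1.76 ± 0.42). Mmp11, a stromal metalloproteinase, had 15.1, 11.2 and 15 CPM in treated tumours, against 32.4, 36.8 and 30.7 CPM in untreated tumours (-1.28 ± 0.36). The collagenase Mmp13 had 8.48, 4.76 and 3.19 CPM in treated tumours, against 17.1, 32.9 and 280 CPM in untreated tumours (-4.33 ± 1.27). The size of the Mmp13 value rests on untreated mouse 3, although every treated tumour was below every untreated one. The collagen cross-linker Loxl1 was at -1.18 ± 0.39. Over the whole family of metalloproteinases, ADAMTS proteases and their TIMP inhibitors, 48 of 68 were below 0 (median -0.51, and -0.87 without treated mouse 1). Groups were apart in 18 downward (26.5%, against 7.17% of all genes) and 4 upward (5.88%, against 6.53%). The aggrecanase Adamts5 of this family was at -1.61 ± 0.45.

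A list of genes that mark mesenchymal cells, transcription factors together with cadherins, vimentin and fibronectin, had 13 of 15 below 0 and a median of -0.66. Groups were apart in 5 (33.3%), all downward. Prrx1, a homeobox factor of mesenchyme, had 71.6, 44.3 and 57.2 CPM in treated tumours, against 176, 178 and 158 CPM in untreated tumours (-1.56 ± 0.45). Zeb2, a repressor of epithelial genes, had 145, 97.1 and 95.5 CPM in treated tumours, against 178, 293 and 210 CPM in untreated tumours (-1.01 ± 0.26). For Prrx1 the highest treated tumour was far below the lowest untreated one, and for Zeb2 the margin was narrower. Cdh11 itself, the mesenchymal cadherin the series is about, had 142, 62.1 and 123 CPM in treated tumours, against 225, 282 and 165 CPM in untreated tumours (-1.04 ± 0.37), all wild-type for the gene. Tcf4, a basic helix-loop-helix factor, was at -0.59 ± 0.17.

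Pdgfra, the receptor that marks fibroblasts, had 144, 53.9 and 97.4 CPM in treated tumours, against 272, 293 and 196 CPM in untreated tumours (-1.37 ± 0.50). Lrat, which stores retinol as esters in stellate cells, had 1.49, 1.79 and 2.47 CPM in treated tumours, against 7.27, 8.8 and 9.84 CPM in untreated tumours (-2.17 ± 0.62). Aldh1a2, which makes retinoic acid, was at -1.48 ± 0.53. In all 3 genes the groups lay apart. Their lists were more mixed. Of 16 inflammatory fibroblast genes, 10 were below 0 and 6 above (median -0.50), with 2 apart downward and 1, Cxcl1 at 1.66, upward. Of 14 stellate cell and retinoid genes, 10 were below 0 and 4 above (median -0.21), with 2 apart, both downward. That list summed to 662, 786 and 729 CPM in treated tumours and 772, 640 and 531 CPM in untreated tumours, which overlap. Of 15 myofibroblast genes, 10 were below 0 and 5 above (median -0.14), with 0 apart. In the TGF-beta pathway, which drives fibroblasts to make matrix, 15 of 19 were below 0 (median -0.32, and -0.19 without untreated mouse 3), among them the receptors Tgfbr1 at -0.69, Tgfbr2 at -0.66 and Tgfbr3 at -0.99, each with groups apart.

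Vessel genes were lower in the same tumours. Of 35 pooled endothelial, lymphatic and pericyte genes, 34 were below 0, with a median of -0.71 and groups apart in 8 (22.9%), all downward. Untreated mouse 2 was the highest tumour in 13 of the 17 endothelial genes, and without it the pooled median was -0.35 and the endothelial one -0.34, against -0.68 with it. Eng, endoglin, a TGF-beta co-receptor of endothelium, had 66.9, 47.1 and 49.7 CPM in treated tumours, against 84.9, 140 and 76.9 CPM in untreated tumours (-0.88 ± 0.25). The endothelial cadherin Cdh5 was at -0.61 ± 0.20 and the adhesion molecule Pecam1 at -0.68 ± 0.25. All 11 pericyte genes were below 0, with the receptor Pdgfrb at -0.87 ± 0.32 and the vessel-stabilising ligand Angpt1 at -1.30 ± 0.42. The pericyte median of -0.70 was -0.11 without untreated mouse 2.

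Complement and coagulation genes, many of which fibroblasts, macrophages and hepatocytes can all express, were below 0 in 14 of 19, with a median of -0.78. Treated tumours were all lower in 7 (36.8%) and all higher in 1 (5.26%). Serping1, the inhibitor of the first complement component, had 196, 128 and 183 CPM in treated tumours, against 476, 567 and 414 CPM in untreated tumours (-1.52 ± 0.40). C2, a protease component, had 55.7, 39.2 and 58.7 CPM in treated tumours, against 130, 195 and 151 CPM in untreated tumours (-1.63 ± 0.47). In these genes no treated tumour reached the lowest untreated one, and the protease C1s1 was alike at -1.51 ± 0.38.

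**Figure D3:**
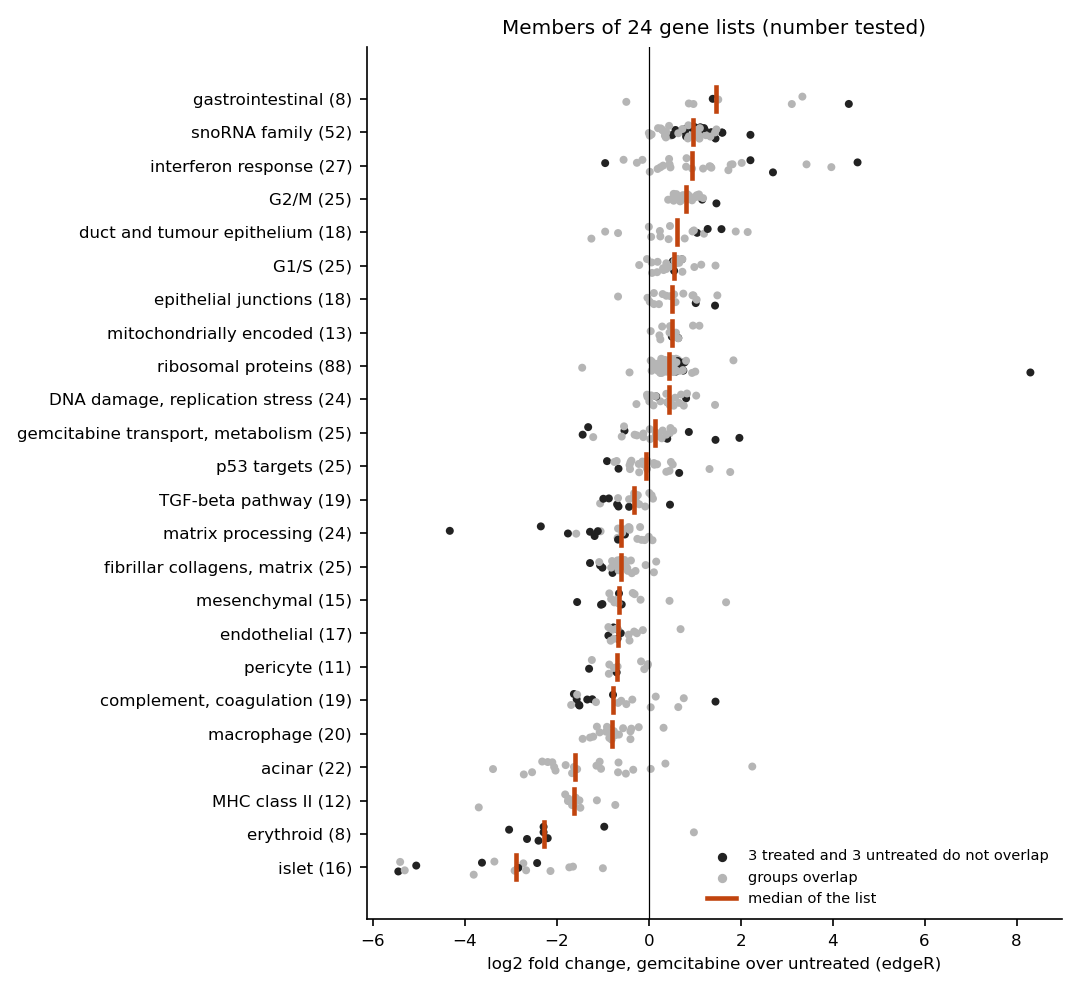
Log2 fold change, gemcitabine-treated over untreated wild-type tumours, of every tested member of chosen gene lists (points), with each list's median as a bar and the number of members tested. The snoRNA points lie at or above 0, and the vessel and matrix processing points lie almost all below it.

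Epithelial genes lay mostly above 0. Over the pooled lists of duct epithelium, squamous epithelium and cell junctions, 39 of 45 were above 0 and 6 below, with a median of 0.55. Groups were apart in 6 upward (13.3%, against 6.53% of all genes) and 1 downward (2.22%, against 7.17%). The pooled median was 0.25 without treated mouse 3, the highest tumour in 11 of 18 duct genes and 13 of 18 junction genes. Muc1, a membrane mucin, had 208, 256 and 225 CPM in treated tumours, against 127, 64.9 and 38.4 CPM in untreated tumours (1.58 ± 0.58). Tspan8, a tetraspanin of gut and pancreatic tumour epithelium, had 153, 149 and 248 CPM in treated tumours, against 92.2, 70.1 and 104 CPM in untreated tumours (1.05 ± 0.33). Tjp3, a tight junction scaffold, had 53.6, 39.8 and 91.1 CPM in treated tumours, against 29.1, 24.5 and 14.2 CPM in untreated tumours (1.44 ± 0.40). All 3 had groups apart, as did the tight junction protein Ocln (1.02 ± 0.33), whereas Krt7 (1.20 ± 0.42) and Lgals4 (2.15 ± 0.86) overlapped. The 1 gene apart downward was the keratin Krt17 of the squamous list, at -3.58. Of the 18 duct genes, 14 were above 0 and 4 below. Epcam was at 0.25, Sox9 at -0.00 and Tff2 at -1.25. The duct list summed to 5036, 6081 and 10472 CPM in treated tumours, against 4754, 3972 and 5615 CPM in untreated tumours, with treated mouse 1 inside the untreated range.

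Of 8 tested genes of stomach and intestine, 7 were above 0, with a median of 1.45 that was 0.40 without treated mouse 1, and 2 had groups apart. Vil1, villin of brush border microvilli, had 50.3, 103 and 151 CPM in treated tumours, against 32.6, 44.5 and 39.2 CPM in untreated tumours (1.39 ± 0.33). Cdx2, the intestinal homeobox factor, had 1.49, 8.66 and 7.55 CPM in treated tumours, against 0.816, 0.0461 and 0 CPM in untreated tumours (4.35 ± 1.61). Muc2, the goblet cell mucin, had 159, 4.44 and 7.16 CPM in treated tumours, against 4.96, 1.84 and 9.95 CPM in untreated tumours (3.34 ± 1.27). Muc2 was high in treated mouse 1 alone, whereas Cdx2 and Vil1 were lowest there among the treated tumours. The list summed to 351, 128 and 189 CPM in treated tumours, against 75.5, 75.5 and 69.8 CPM in untreated tumours. The part of these genes' tissue of origin in the epithelial values was not tested.

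Markers of red cells and islets had medians far from 0. Of 8 red cell genes, 7 were below 0, all 7 with groups apart, and the median was -2.29. The globin Hbb-bs had 11.6, 43.9 and 47.1 CPM in treated tumours, against 122, 221 and 159 CPM in untreated tumours (-2.29 ± 0.98), and Alas2, which starts haem synthesis in red cell precursors, had 6.97, 6.62 and 6.73 CPM in treated tumours, against 12.7, 13.7 and 13.3 CPM in untreated tumours (-0.97 ± 0.28). Summed, red cell genes took 37.8, 110 and 126 CPM in treated tumours, against 322, 532 and 420 CPM in untreated tumours. The lowest untreated sum was well above the highest treated one, and the median stayed between -2.55 and -1.88 as libraries were left out.

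Islet and acinar genes were unevenly spread over the tumours, and the part of remnants of pancreas in their levels was not tested. All 16 islet genes were below 0, with a median of -2.88 and groups apart in 5; the median was -4.66 without treated mouse 1 and -1.69 without untreated mouse 2. Iapp, the beta cell amyloid peptide, had 0.808, 0.0232 and 0.12 CPM in treated tumours, against 1.19, 25.8 and 5.18 CPM in untreated tumours (-5.06 ± 1.58), and Gcg, glucagon, had 2.86, 0 and 0.216 CPM in treated tumours, against 4.47, 101 and 29.6 CPM in untreated tumours. The islet list summed to 34.4, 2.14 and 4.1 CPM in treated tumours and 30.2, 330 and 86.6 CPM in untreated tumours, so that treated mouse 1 was above untreated mouse 1. Acinar genes summed to 274, 9.13 and 44.3 CPM in treated tumours and 14.9, 234 and 679 CPM in untreated tumours, with 0 of 22 genes apart. The acinar median of -1.60 ranged from -3.67 to -0.24 as libraries were left out.

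**Figure D4:**
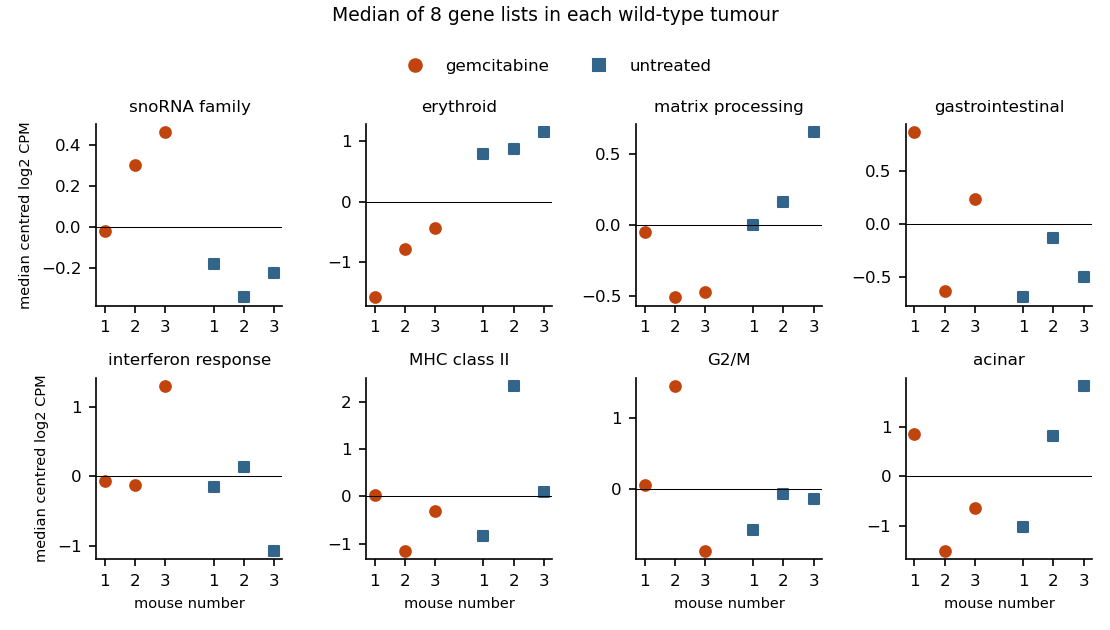
Level of each of 8 gene lists in each of the 3 gemcitabine-treated (left) and 3 untreated (right) wild-type tumours, as the median over its genes of log2 CPM centred on each gene's own mean. Interferon genes stand out in treated mouse 3 and MHC class II genes in untreated mouse 2, while snoRNAs differ between all treated and all untreated tumours.

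Genes induced by interferon were above 0 in 23 of 27, with a median of 0.94. Groups were apart in 3 upward (11.1%, against 6.53% of all genes) and 1 downward (3.7%, against 7.17%). Treated mouse 3 held the highest value of the 6 tumours in 22 of the 27 genes. The promoters of members with the smallest p-values are shown because interferon-stimulated transcription factors bind a known element; sequences are from RefSeq (GRCm38.p6), 250 bases before and 50 after the start, 5' to 3' on the gene's strand, with the motif in capitals: GAAA, then any 2 bases, then GAAA again, searched on both strands with overlapping matches counted.
Oas3: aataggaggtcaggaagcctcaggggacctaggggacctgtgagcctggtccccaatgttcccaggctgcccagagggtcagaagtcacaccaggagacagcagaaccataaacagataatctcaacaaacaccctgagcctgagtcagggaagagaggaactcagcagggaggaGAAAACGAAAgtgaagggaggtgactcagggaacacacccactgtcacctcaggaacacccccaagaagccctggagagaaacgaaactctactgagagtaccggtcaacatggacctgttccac
Cxcl10: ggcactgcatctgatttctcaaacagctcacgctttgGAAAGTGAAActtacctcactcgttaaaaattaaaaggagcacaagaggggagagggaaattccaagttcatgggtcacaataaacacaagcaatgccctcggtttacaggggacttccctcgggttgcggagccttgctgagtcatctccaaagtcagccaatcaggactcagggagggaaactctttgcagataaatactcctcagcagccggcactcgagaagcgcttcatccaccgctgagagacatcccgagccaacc
Isg15: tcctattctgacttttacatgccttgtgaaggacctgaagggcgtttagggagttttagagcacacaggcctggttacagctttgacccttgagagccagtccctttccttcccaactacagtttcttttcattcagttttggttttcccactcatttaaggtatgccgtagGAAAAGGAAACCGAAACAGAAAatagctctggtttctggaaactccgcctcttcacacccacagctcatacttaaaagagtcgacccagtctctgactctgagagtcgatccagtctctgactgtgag
These windows are chr5:120777610-120777909, chr5:92348840-92349139 and chr4:156200769-156201068, all on the minus strand. The motif begins at base -75 from the start of Oas3 and -213 from that of Cxcl10, and Isg15 holds 3 overlapping or adjoining matches, the first at -78. The window of Irf7 holds none, which says only that these letters are not in it. The motif was in 1131 of 32851 promoters in the table (3.44%) and in 13 of 24 promoters of interferon genes there (54.2%), which belong to 20 genes, 13 of them with a match (65%).

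Oas3, a sensor of double-stranded RNA, had 1.59, 3.3 and 33.4 CPM in treated tumours, against 0.639, 0.668 and 0.335 CPM in untreated tumours (4.54 ± 1.27). Irf7, a transcription factor that amplifies interferon genes, had 6.42, 10.3 and 68.9 CPM in treated tumours, against 5.53, 5.3 and 2.33 CPM in untreated tumours (2.70 ± 0.84). Isg15, a ubiquitin-like modifier, had 1.35, 1.95 and 4.58 CPM in treated tumours, against 0.749, 0.853 and 0.0986 CPM in untreated tumours (2.21 ± 0.80). In each, treated mouse 3 was the highest, by the widest margin in Oas3 and Irf7, and the other treated tumours were also above the untreated ones. The chemokine Cxcl10 overlapped, at 2.25, 0.441 and 20 CPM in treated tumours and 0.419, 0.691 and 0.335 CPM in untreated tumours. Without treated mouse 3 the list's median was 0.18, and its sum was 205, 213 and 603 CPM in treated tumours, against 218, 270 and 143 CPM in untreated tumours.

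Presentation genes of MHC class II, carried by dendritic cells, macrophages and B cells, were below 0 in all 12, with a median of -1.63. Their sum was 653, 238 and 478 CPM in treated tumours, against 371, 2867 and 599 CPM in untreated tumours. Untreated mouse 2 held the highest value in 11 of 12 genes, and without it the median was 0.06. The beta chain H2-Eb1, with 1, 0.534 and 0.934 CPM in treated tumours, against 0.595, 5.76 and 25.8 CPM in untreated tumours (-3.70 ± 1.24), was the exception that peaked in untreated mouse 3. All 15 class I genes were also below 0 (median -0.53), with 1 apart, H2-M3 at -0.88 ± 0.36, and their median too was -0.00 without untreated mouse 2.

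Macrophage genes were below 0 in 19 of 20, with a median of -0.81 that was -0.20 without untreated mouse 2, and 0 apart in either direction. The receptor Csf1r had 135, 75.6 and 80.1 CPM in treated tumours, against 90.2, 383 and 163 CPM in untreated tumours (-1.13 ± 0.45). Here treated mouse 1 was above untreated mouse 1, and untreated mouse 2 was the highest in 17 of the 20 genes. Neutrophil genes were below 0 in 14 of 15 (median -0.75, and -1.35 without treated mouse 2), 3 with groups apart. Trem1, a receptor that amplifies inflammation in neutrophils and monocytes, had 4.96, 7.97 and 6.21 CPM in treated tumours, against 18, 20.5 and 12.3 CPM in untreated tumours (-1.41 ± 0.34), with no overlap. The chemokine Cxcl14 was likewise apart, at 22.1, 33.4 and 90.1 CPM in treated tumours, against 209, 133 and 138 CPM in untreated tumours (-1.72 ± 0.50). T cell genes were below 0 in 18 of 20 (median -0.88), at very low levels; untreated mouse 2 was the highest tumour in 15 of them, and the median was -0.35 without it.

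Of 25 genes that carry, activate, inactivate or are hit by gemcitabine, 15 were above 0 and 10 below. Their median of 0.14 was -0.05 without treated mouse 2. Groups were apart in 4 upward (16%, against 6.53% of all genes) and 3 downward (12%, against 7.17%). Slc28a2, a concentrative nucleoside transporter, had 23.3, 3.51 and 6.25 CPM in treated tumours, against 2.38, 3.48 and 2.56 CPM in untreated tumours (1.97 ± 0.66). Dctd, which deaminates deoxycytidylate and also gemcitabine monophosphate, had 5.46, 21.1 and 8.91 CPM in treated tumours, against 3.7, 3.85 and 5.38 CPM in untreated tumours (1.45 ± 0.54). Abcg2, a drug efflux pump also found in vessel linings, had 11.3, 6.71 and 7 CPM in treated tumours, against 13.2, 22.6 and 26.8 CPM in untreated tumours (-1.32 ± 0.36). The margin between the groups was narrow in all 3, at most a few CPM, and Slc28a2 was set mainly by treated mouse 1. Ctps2, a cytidine triphosphate synthase, was at -0.53 ± 0.21.

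Targets of p53, the factor that DNA damage normally activates and that KPC tumours carry in mutant form, had no common direction: 10 of 25 were above 0 and 15 below, and the median was -0.06, between -0.28 and 0.03 as libraries were left out. Trp53inp1, a proapoptotic target, had 92, 91.5 and 111 CPM in treated tumours, against 227, 149 and 178 CPM in untreated tumours (-0.91 ± 0.22). Sesn1, a stress-induced regulator of growth, was at -0.66 ± 0.24, while the exonuclease Aen was at 0.66 ± 0.23 and the membrane protein Perp at 1.32 ± 0.49. Trp53 itself had 46.2, 67 and 46.5 CPM in treated tumours, against 28.5, 34.2 and 31.6 CPM in untreated tumours (0.76 ± 0.27); the counts do not separate mutant from wild-type transcripts.

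Genes of DNA damage and replication stress were above 0 in 21 of 24 (median 0.43), treated mouse 2 being the highest tumour in 20, and Tipin, which helps stabilise stalled forks, was at 0.81 ± 0.26. Among genes of entry into S phase, 23 of 25 were above 0 (median 0.55); the thymidine kinase Tk1 had 26.7, 42.9 and 25.7 CPM in treated tumours, against 17.4, 22.3 and 18.1 CPM in untreated tumours (0.72 ± 0.25). All 25 genes of G2 and mitosis were above 0 (median 0.81), among them Kif23, a kinesin of cytokinesis, with 44.9, 93.8 and 37.3 CPM in treated tumours, against 25.4, 20 and 18.1 CPM in untreated tumours (1.47 ± 0.56). Treated mouse 2 was the highest tumour in all 25 of the G2 and mitosis genes and in 24 of the 25 S phase genes. Without it the medians were -0.16 for G2 and mitosis, 0.09 for S phase and 0.21 for DNA damage and replication stress. Groups were apart upward in 2 genes of G2 and mitosis (8%) and 3 of S phase (12%), against 6.53% of all genes. The same held for 3 genes of DNA damage and replication stress (12.5%), and 0 were apart downward in these lists. Kif23, Tk1 and Tipin were among the genes apart, and most others overlapped.

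Genes of hypoxia and glycolysis had no common direction: 9 of 26 were above 0 and 17 below, with a median of -0.12 that was 0.68 without untreated mouse 3, and 1 was apart in each direction. Car9, a carbonic anhydrase of hypoxic cells, had 44.9, 51.5 and 39.1 CPM in treated tumours, against 14, 6.84 and 21 CPM in untreated tumours (1.70 ± 0.42), while Ndrg1, a stress-induced gene of the same list, was at -0.84 ± 0.88, and at 0.61 without untreated mouse 3. Chac1, a glutathione-degrading enzyme of the integrated stress response, was at 1.59 ± 0.49 and Asns, asparagine synthetase of the same response, at 0.96 ± 0.38, both with groups apart. Their list, of 19 genes of the unfolded protein response, had 13 above 0 and 6 below, with a median of 0.10. In it 2 genes were apart upward (10.5%) and 1 downward, and Ddit3 and Trib3 were each at 0.16. Cholesterol and fatty acid synthesis genes were above 0 in 21 of 22, with a median of 0.33 that was -0.04 without treated mouse 2, the highest tumour in 17 of them, and the fatty acid elongase Elovl6 was at 1.67 ± 0.62. The Kit receptor had 10.3, 11.9 and 10.2 CPM in treated tumours, against 19.1, 20.8 and 19.6 CPM in untreated tumours (-0.88 ± 0.25), a tight pair of groups.

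The same contrast in tumours with 1 functional Cdh11 copy gave a different set of values. Sex was uneven between the genotypes too. Treated heterozygous tumours had Xist at 0.585 to 1.12 CPM and Y-linked RNA at 258 to 502 CPM. Untreated heterozygous tumours had Xist at 2016, 1.64 and 1.37 CPM and Y-linked RNA at 0.724, 183 and 39.8 CPM. The part of sex in the differences between genotypes was not tested. The difference of the effects, wild-type minus heterozygous, passed edgeR's adjusted p of 0.05 in 2 genes (0.00831% of those tested), both with near-identical copies; DESeq2 called 652. Of the 20 leading genes of the wild-type comparison, 17 had the other sign in heterozygous tumours, and their adjusted p of the difference, again from edgeR, lay between 0.106 and 0.334. These genes were chosen for their wild-type effect, so a smaller or opposite effect elsewhere is not by itself a finding. Qtrt1 was at 1.36 ± 0.23 in wild-type and -0.94 ± 0.23 in heterozygous tumours, a difference of 2.30 ± 0.32 (adjusted p = 0.106). Cyp7b1 was at -2.36 ± 0.41 in wild-type and 1.53 ± 0.40 in heterozygous tumours, a difference of -3.89 ± 0.57 (adjusted p = 0.124).

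Among lists the snoRNAs had a median of 0.96 in wild-type tumours and -0.56 in heterozygous tumours, where 47 of 52 were below 0 and 14 had groups apart downward, 1 upward. Their sums in heterozygous tumours were 1220, 969 and 1259 CPM with gemcitabine and 1458, 1513 and 1999 CPM without. The untreated wild-type tumours were thus the lowest of the 4 groups, and the untreated heterozygous ones were the highest apart from an overlap with treated wild-type mouse 3. Fibrillar collagens and partners had a median of -0.61 in wild-type and 0.36 in heterozygous tumours, endothelial genes -0.68 and 0.45, complement and coagulation genes -0.78 and 0.49, and interferon genes 0.94 and -0.78. Red cell genes had the same sign in both genotypes, -2.29 in wild-type and -1.48 in heterozygous tumours. No difference between list medians was tested.

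**Figure D5:**
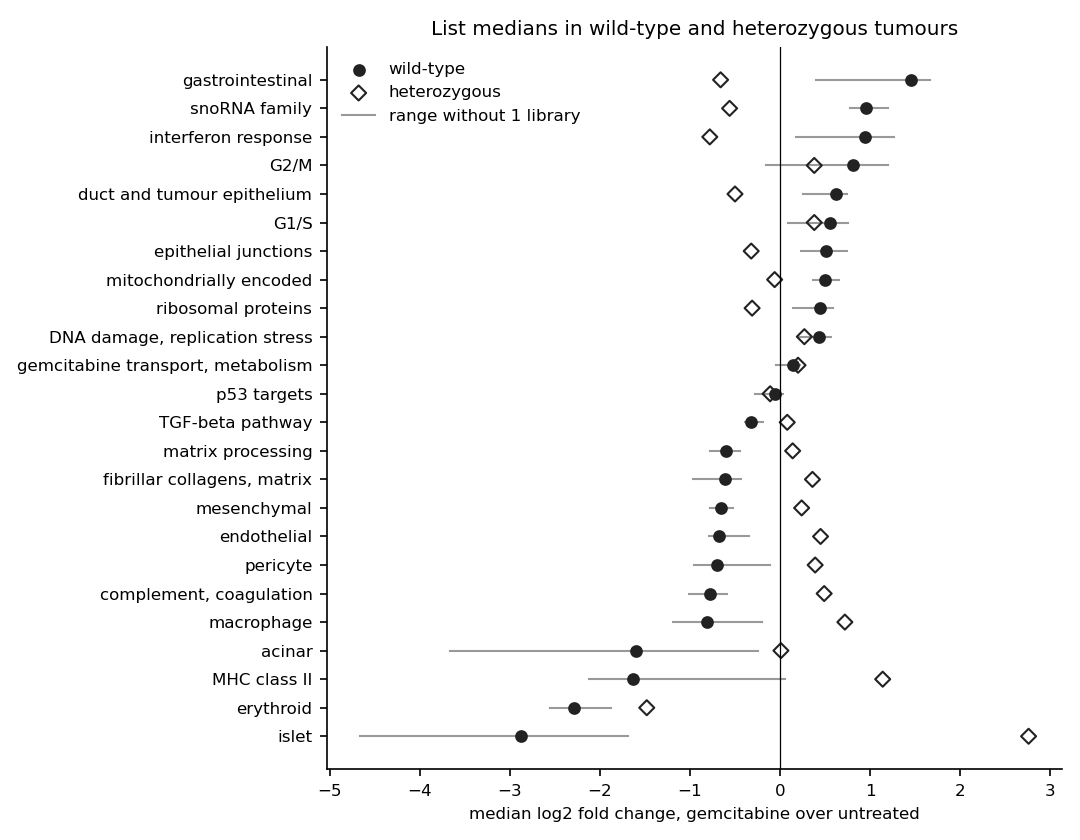
Median log2 fold change, gemcitabine-treated over untreated, of gene lists in wild-type tumours (circles, with a grey line for the range when 1 library at a time is left out) and in heterozygous tumours (diamonds). The snoRNA median is 0.96 in wild-type and -0.56 in heterozygous tumours, whereas red cell genes are below 0 in both.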

How the data were processed

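Total RNA of 12 tumours was sequenced after ribosomal RNA depletion with a strand-keeping kit, per the labels' protocols. The authors deposited 1 table of expected counts per library, made with RSEM on GRCm38 per the submitters' processing notes; version and annotation release are not given in those notes. Expected counts were rounded to whole numbers, filtered with filterByExpr, scaled by TMM and fitted for all 12 libraries, with 1 mean per group, by edgeR 4.0.16 (robust quasi-likelihood test, 8 residual degrees of freedom, R 4.3.3). The filter kept at least 99.865% of counts and TMM factors were 0.897 to 1.09. CPM were computed from the rounded counts and TMM-scaled library sizes. P-values were adjusted over 24065 genes and called at 0.05. DESeq2 1.42.0 and limma 3.58.1 (voom) were alternatives, as were other scalings, filters, a replicate block, Xist class or acinar sum as a term, and leaving out each library; DESeq2 left 1048 adjusted p-values as NA. The procedure was tested on simulated data.

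Genes were named by a rule: the 10 smallest p-values in each direction among annotated, non-predicted genes with no overlap of groups, and up to 4 members of each list by smallest p. The members and lists were chosen with earlier results of these data known, and lists are described, not tested. Near-identical copies were found with blastn 2.17.0 at 95% identity over at least 50% of the transcript. Each library was a separate mouse per the series design. Replicate numbers were not taken to pair mice, since same-numbered libraries did not deviate together. A floor of 3 counts covers counting error only.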

Additional observations from a re-analysis of the deposited data

Results flagged for a closer look

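The gemcitabine effect differed between genotypes, by the test of the difference in edgeR's fit, in 2 genes. Gm10260, a predicted gene, had a difference of -5.82 ± 0.52 (wild-type minus heterozygous, log2, SE; adjusted p = 0.0048): 0.88 in wild-type tumours and 6.70 in heterozygous ones, where treated tumours had 117, 111 and 121 CPM and untreated ones 0.9, 0.928 and 1.51 CPM. Its transcript nearly matches Rps18, which encodes a ribosomal protein; summed with 6 such copies, wild-type treated tumours had 387, 844 and 343 CPM and untreated ones 292, 381 and 460 CPM, and heterozygous treated tumours had 416, 464 and 437 CPM and untreated ones 615, 389 and 723 CPM. The sums overlapped between treated and untreated tumours in both genotypes.

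BC023719 had a fitted difference of -9.65 ± 0.77 (adjusted p = 0.0048), with 0.34 in wild-type tumours. All untreated heterozygous tumours had 0 counts, so the fitted value depends on the prior count and is no bound; against a floor of 3 counts per library, treated heterozygous tumours were at least 43.4-fold higher. Summed with near-identical copies (H2-T22, H2-T10 and A930015D03Rik), wild-type treated tumours had 23.9, 21.3 and 17.9 CPM and untreated ones 19.3, 21.1 and 27.9 CPM, and heterozygous treated tumours had 28.1, 26 and 30.4 CPM and untreated ones 25.3, 27.4 and 57.4 CPM. These sums overlapped too. How reads were split between copies was not tested.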

How the results depend on the processing

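Among 123 genes followed one by one, including those named, 2777 of 2821 values under the alternatives kept their sign and side of the threshold, 43 passed it under an alternative, and 1 reversed: Ndrg1, which lay between -1.34 and 0.61 when 1 library was left out and was 0.61 without untreated mouse 3. The count of genes in the wild-type comparison, 0 with edgeR, was 120 with DESeq2 and 1 (Rpl7a-ps11, adjusted p = 0.0197 in edgeR) without untreated heterozygous mouse 1, an alternative chosen after seeing the data; it stayed at 0 under every other alternative run, over which 1330 to 2985 genes had an unadjusted p under 0.05 when libraries were left out. The count for the difference between genotypes, 2 with edgeR, was 652 with DESeq2 and lay between 2 and 7 when 1 library was left out, with 7 without untreated heterozygous mouse 1, 4 without untreated heterozygous mouse 3 and 4 without treated wild-type mouse 1. The cause was not tested. With replicate number as a block, edgeR called 0 genes in the wild-type comparison (1708 at unadjusted p under 0.05) and 2 in the difference. Deviations of same-numbered libraries correlated at -0.24, -0.04 and -0.05, and those of other pairs at -0.15 to 0.23. The numbers thus gave no sign of pairing, which so few libraries cannot exclude. Of 1291 list medians over 76 lists, 104 moved by more than 1 SD between mice. The median of MHC class II genes was 0.06 without untreated mouse 2 and -0.47 with Xist class as a term. The acinar median, -1.60, was 0.15 with the acinar sum as a term. That term is the sum of the same acinar genes, so it takes up their own differences by construction. Nothing is concluded from that value. With 3 mice per group and a coefficient of variation of 46.4% between mice, the spread between tumours limits what could be called; genes with few counts, such as Slitrk5, are also limited by depth.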
